A study of Mus musculus with 12 samples.

Results

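The constitutive proteasome subunits and the factors that serve them were taken from the expression table of CT26 cells, a mouse colon carcinoma line. The members were every gene symbol that starts with PSMA, PSMB, PSMC, PSMD, PSME, PSMF or PSMG followed by a number, apart from the inducible subunits PSMB8, PSMB9, PSMB10, PSME1 and PSME2. That gave 45 of 23636 symbols. The rule itself uses no expression value, but it was chosen with earlier results of these data known. Of the 45, 31 encode constitutive subunits of the core and the cap, 7 are assembly chaperones, 3 are alternative activators or an inhibitor, and 2 are tissue-specific core subunits. The remaining 2 match by name only. PSMC3IP is a meiotic recombination factor and PSME2B is a copy of the inducible PSME2.

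CT26 cells received no treatment, recombinant CX3CL1 at 2 µg/ml, IFN-γ at 100 ng/ml, or CX3CL1+IFN-γ at the same doses, each for 8 hours. All 4 groups were of this line, and the labels name no other agent, although the study's text also mentions TNF-α beside IFN-γ. That text has CX3CL1 added after these cytokines, while the figure legend gives 8 hours and no order. The order and the length of IFN-γ exposure with both agents are therefore uncertain. Each group had 3 biological replicates, which gave 12 RNA-seq libraries. The deposited values were TPM, transcript levels corrected for length and scaled to the same total in each library, so read depth is unknown and precision comes from the spread between replicates. CX3CL1 is the chemokine ligand of CX3CR1, and the comparisons ask how each agent and their combination changed tumor cell mRNA.

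The proteasome degrades proteins that carry ubiquitin chains. Its core particle, the 20S proteasome, stacks rings of alpha subunits, which form the gate, around rings of beta subunits, of which PSMB5, PSMB6 and PSMB7 hold the active sites. The cap, the 19S particle, binds ubiquitin, removes it and unfolds the substrate with a ring of ATPases. In cells exposed to IFN-γ, newly made cores can take up PSMB8, PSMB9 and PSMB10 in place of PSMB5, PSMB6 and PSMB7, and the activator of PSME1 and PSME2 can replace the cap, which changes the peptides offered on MHC class I.

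The markers of the line and of each agent were read first. Of 8 epithelial markers 2 (KRT18 and KRT20) passed the filter on low values, EPCAM was listed at 0 in all 12 libraries, and group means of CDH1 were at most 0.0170 TPM. All 4 mesenchymal markers passed, led by VIM at 4174 TPM without treatment. Of 6 leukocyte markers 1 (CD68) passed, and CD3E was listed at 0. The epithelial markers summed to 51.2 to 64.7 TPM without treatment, 33.6 to 44.4 after CX3CL1, 35.7 to 41.8 after IFN-γ and 24.9 to 33.2 with both. The mesenchymal markers summed to 4017 to 5194, 3568 to 4215, 2795 to 3837 and 2094 to 3393 TPM in the same order, and the leukocyte markers lay between 7.99 and 27.0 TPM in every group. The part of these shifts in the results below was not tested. CXCL1, a chemokine target of NF-kB, averaged 4.96 TPM without treatment and 439.5 TPM after CX3CL1, and IRF1, a target of IFN-γ signaling, averaged 19.6 TPM without treatment and 107 TPM after IFN-γ. CX3CL1 replicate 2 stood apart from the other libraries, as described below.

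Sequences are shown for the members on which the results turn. PSMD10 was the only member called after CX3CL1 alone, so the stretch between its start and that of the neighbouring gene ATG4A, which is read the other way, is printed first (RefSeq, GRCm38.p6, chrX:140956729-140956906, minus strand, 178 bases). Capitals mark the CCAAT box, here on the opposite strand as ATTGG.

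PSMD10: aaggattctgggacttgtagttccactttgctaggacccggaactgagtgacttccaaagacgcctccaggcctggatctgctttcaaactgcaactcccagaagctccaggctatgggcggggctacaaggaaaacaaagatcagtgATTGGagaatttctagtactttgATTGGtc

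PSMB5 and PSMB6 encode catalytic subunits that did not change detectably beside inducible subunits that did. The bases upstream of their starts that lie in no annotated gene are chr14:54618023-54618245 on the minus strand and chr11:70525107-70525356 on the plus strand, from the same source. Capitals mark the pattern TGACNNNGC of the antioxidant response element, bound by the NFE2L1 and NFE2L2 factors that control proteasome genes. PSMB7, the other catalytic subunit, was not called either but is not printed. It was not among the 5 members found with this pattern.

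PSMB5: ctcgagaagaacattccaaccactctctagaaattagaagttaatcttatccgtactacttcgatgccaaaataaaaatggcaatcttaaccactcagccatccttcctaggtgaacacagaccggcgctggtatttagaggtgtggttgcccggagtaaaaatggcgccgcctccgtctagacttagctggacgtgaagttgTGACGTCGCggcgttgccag

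PSMB6: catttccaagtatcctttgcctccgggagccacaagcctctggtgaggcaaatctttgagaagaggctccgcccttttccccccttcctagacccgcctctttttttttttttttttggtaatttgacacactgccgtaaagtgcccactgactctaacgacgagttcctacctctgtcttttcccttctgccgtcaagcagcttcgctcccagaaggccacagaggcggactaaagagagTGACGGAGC

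PSME2B and PSME2 are shown because reads from one can be counted for the other. Capitals mark the 3 bases that differ in this stretch of 150 coding bases of PSME2B (chr11:48945576-48945725, minus strand) and the stretch of PSME2 aligned to it.

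PSME2B: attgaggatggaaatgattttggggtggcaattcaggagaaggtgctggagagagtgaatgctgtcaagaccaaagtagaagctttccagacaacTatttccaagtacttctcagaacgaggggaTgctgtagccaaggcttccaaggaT

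PSME2: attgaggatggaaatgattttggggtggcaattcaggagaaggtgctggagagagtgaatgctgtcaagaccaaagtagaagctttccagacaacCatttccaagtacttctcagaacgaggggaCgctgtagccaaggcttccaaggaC

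Over their aligned transcripts, PSME2B and PSME2 were identical at 789 of 794 bases (99.4%), and 384 of 738 windows of 100 bases of PSME2B (52.0%) also occurred in PSME2. The annotation places PSME2B as a gene of 1 exon at chr11:48945354-48946190, within the span of GM12185 on the same strand and overlapping another annotated gene by 41 bases. How the authors counted reads shared by similar or overlapping genes is not given in the sources used here, so the level of PSME2B is uncertain. PSMD10 (chrX:140948429-140956728, minus strand) shared no window of 100 bases with another gene and overlapped no other gene. Of the members, 20 overlapped another annotated gene, 10 of them on the same strand, and whether strand was used in the counting is likewise not given.

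In untreated cells the proteasome genes were among the abundant transcripts. Of the 45 members, 43 passed the filter of 0.2 TPM on the average of all libraries and were tested. All 43 lay above the median of the 11878 genes tested (22.04 TPM), and 32 lay above the 90th percentile (141 TPM). Their own median was 243 TPM, and together they made up 1.11% of the untreated TPM. The spread between replicates was small, with a median SD of log2(TPM + 1) within groups of 0.115 over the members and 0.168 over all genes tested. PSMA8, a core subunit of testis, was listed at 0 in all 12 libraries. PSMB11, a core subunit of the thymus, was listed at 0 in 9 libraries and reached 0.00840, 0.0150 and 0.00935 TPM with CX3CL1+IFN-γ, far under the filter.

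The subunits of the alpha ring, present in equal number in the particle, did not have equal transcript levels. PSMA4 was highest, at 509.6, 480.5 and 549 TPM without treatment (513 ± 34.6, SD, n = 3). PSMA3 was lowest, at 166, 173 and 164 TPM (167 ± 5.07). After CX3CL1, PSMA3 was at 159, 223 and 174 TPM and PSMA4 at 503, 637 and 504 TPM, so both were highest in replicate 2. After IFN-γ they were at 163, 183 and 176 TPM and at 494, 538 and 531 TPM, and with both agents at 145, 196 and 187 TPM and at 587, 569 and 574 TPM. All groups of PSMA3 overlapped, while the CX3CL1+IFN-γ libraries of PSMA4 were above the untreated ones. Below PSMA4 in order came PSMA2, PSMA7 and PSMA5, of which neighbours overlapped.

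The beta ring had a wider range, from 68.9 TPM for PSMB5 to 557 TPM for PSMB7 (± 7.14 and 27.5), a ratio of 8.08. In the descending order of PSMB7, PSMB4, PSMB1, PSMB3 and PSMB2, neighbours overlapped, while PSMB6 (228 ± 27.7 TPM) and PSMB5 stood apart below them. Of the windows of 100 bases of PSMB5, 24.9% also occurred in other annotated genes, so its level may be split by the counting. The same limit held for PSMA5 (27.5%), PSMA3 (20.6%), PSMB3 (17.99%) and PSMG3 (17.7%).

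The 6 ATPases of the cap, which unfold the substrate, were the most even ring. PSMC1 was highest at 368, 373 and 387 TPM without treatment and PSMC2 lowest at 215, 209.8 and 207 TPM, a ratio of means of 1.78. Over the 9 treated libraries PSMC1 stayed between 352 and 406 TPM and PSMC2 between 206 and 227 TPM. Neither was called in any comparison.

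Among the 11 other cap subunits that match the naming rule, PSMD14, the deubiquitinase, was highest and PSMD13, a structural subunit, lowest. SEM1 and ADRM1, proteasome components outside the rule, averaged 923 and 244 TPM without treatment. PSMD14 was at 559, 534 and 563 TPM without treatment, 511, 711 and 555 TPM after CX3CL1, 459, 529 and 490.03 TPM after IFN-γ and 468.5, 576 and 535 TPM with both. The IFN-γ libraries lay below the untreated ones, and the other groups overlapped with them. PSMD13 was at 148, 155 and 148 TPM without treatment and between 128 and 161 TPM in the treated libraries, and only the CX3CL1 libraries (155, 159 and 161 TPM) did not overlap with the untreated ones.

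Most chaperones that assemble the particle were at lower levels than most subunits. Those of the core, PSMG1 to PSMG4, lay between 54.5 TPM for PSMG3 (50.8, 58.9 and 53.8 TPM) and 95.4 TPM for PSMG2 (99.04, 99.1 and 88.1 TPM). For the base of the cap, PSMD5 was at 203, 179 and 165 TPM, PSMD10 at 52.4 ± 5.34 TPM and PSMD9 at 30.8, 31.8 and 32.0 TPM, and the libraries of these 3 did not overlap. PSMD9, of which the span overlaps 3 genes on the opposite strand, ran from 25.8 TPM in CX3CL1 replicate 2 to 37.4 TPM in IFN-γ replicate 1. PSME3, the nuclear activator, was at 206 ± 6.15 TPM, PSME4, an activator that opens the gate without ATP, at 49.2 ± 9.27 TPM and PSMF1, an inhibitor of the core in vitro, at 26.4 ± 1.84 TPM. PSMC3IP, which is no proteasome subunit, was at 41.6 TPM. The plot of levels shows this order.

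**Figure D1:**
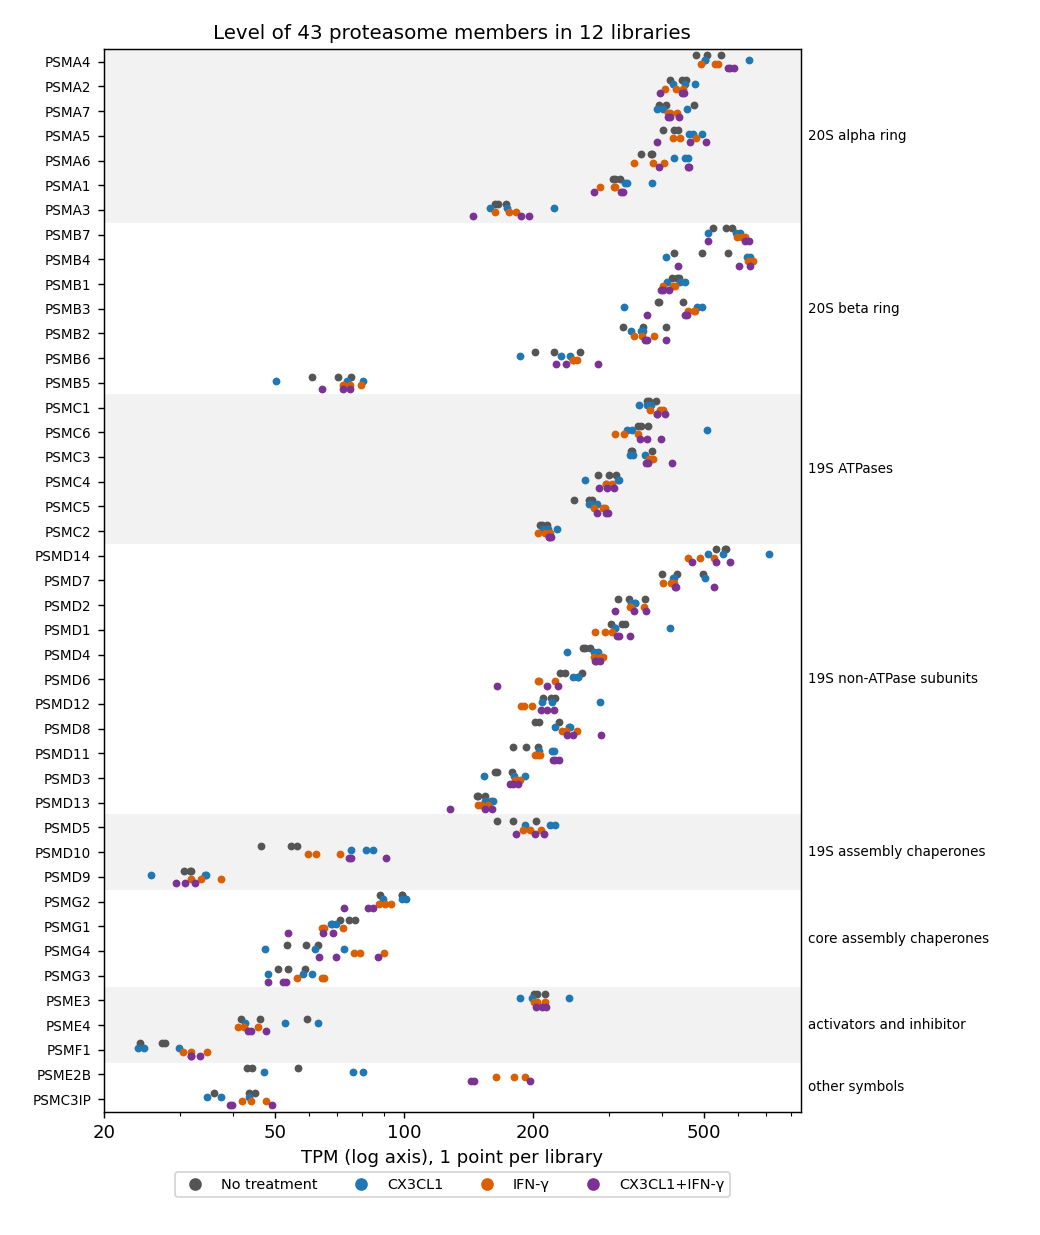
Level of the 43 members tested in TPM on a log axis, with 1 point per library and the members grouped by role. The 4 groups lie close together for most members, although IFN-γ and no treatment did not overlap for 15 of 43 (34.9%), beside 34.2% of all genes tested. PSMD10 and PSME2B are shifted, and 1 CX3CL1 library lies apart for PSMC6, PSMD1 and PSMD14.

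After CX3CL1, PSMD10 was higher and no subunit of the core or cap was called. PSMD10, also named gankyrin, is a chaperone that binds the ATPase PSMC4 during assembly of the cap and is known as an oncoprotein that binds RB1 and MDM2. Its level was 56.3, 46.3 and 54.7 TPM without treatment and 81.4, 84.7 and 75.2 TPM after CX3CL1. Each CX3CL1 library was above each untreated library. The log2 fold change was 0.61 (SE 0.112), with an adjusted p of 0.0104 by limma over all 11878 genes. That was 1 of 43 members, beside 1.95% of all genes called in this comparison. Without untreated replicate 2 the call was lost, at a log2 fold change of 0.53 and an adjusted p of 0.0652, the highest over 16 alternatives (the lowest was 0.00314). In bulk libraries, a change in the share of cells that express a gene and a change in RNA per cell cannot be told apart. ATG4A, an autophagy protease gene that starts beyond the 178 bases printed above, averaged 15.3 ± 2.65 TPM without treatment and 18.9 ± 1.72 TPM after CX3CL1 (limma, adjusted p = 0.624).

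The other members moved little after CX3CL1. The 31 subunits of the core and cap had log2 fold changes from -0.05 (PSMB6) to 0.26 (PSMA6), and their 95% intervals lay between -0.36 (PSMB5) and 0.55 (PSMB4). All 31 intervals excluded a change of 1.5-fold in either direction, as did those of 83.4% of all genes tested. At an unadjusted p under 0.05, 4 of 43 members passed, beside 8.07% of all genes, and 2 of these were of the core and cap. The median over the 43 members was 0.05, beside -0.02 over all genes tested. PSMA6, an alpha subunit, was at 356.5, 379 and 377 TPM without treatment and 427, 458 and 451.5 TPM after CX3CL1, with no overlap, a log2 fold change of 0.26 (SE 0.0949) and an adjusted p of 0.335. PSMD11, a cap subunit, had a log2 fold change of 0.18 (adjusted p = 0.599). Libraries of the groups did not overlap for 7 of 43 members (16.3%), beside 11.2% of all genes tested.

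After IFN-γ, the constitutive subunits were not called while every inducible subunit was. PSME2B was the only one of 43 members that was called, beside 7.85% of all genes tested. Its level was 56.6, 43.2 and 44.2 TPM without treatment and 181, 164 and 192 TPM after IFN-γ. All IFN-γ libraries were far above all untreated libraries, and the log2 fold change was 1.88 (SE 0.191, limma, adjusted p = 3.66e-05). The ratio of PSME2B to PSME2 stayed between 0.202 and 0.249 in all 12 libraries, while PSME2 itself ran from 195 TPM to 809.6 TPM. GM12185, which spans PSME2B on the same strand, averaged 0.281 TPM without treatment and 6.51 TPM after IFN-γ. The part of reads from either gene in the value of PSME2B was not tested.

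PSMG4, a chaperone of the core, had the next largest log2 fold change of the 43 members after IFN-γ. It was at 63.1, 59.0 and 53.3 TPM without treatment and 89.7, 76.6 and 79.1 TPM after IFN-γ. The groups did not overlap, and the log2 fold change was 0.48 (SE 0.154, limma, adjusted p = 0.0828). PSMF1 was at 27.7, 27.2 and 24.3 TPM without treatment and 34.7, 31.9 and 30.6 TPM after IFN-γ, again without overlap (log2 fold change 0.28, adjusted p = 0.126). Same-numbered libraries of these groups deviated together, and with the replicate number as a block both passed, PSMF1 at an adjusted p of 0.0443 and PSMG4 at 0.0471. The blocked fit thus called 3 of 43 members, beside 16.2% of all genes. With centring by GC content as well, neither passed (adjusted p = 0.153 and 0.0841). PSMD10 was at 62.4, 59.9 and 71.2 TPM after IFN-γ, above the untreated libraries, with a log2 fold change of 0.29 (adjusted p = 0.143).

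The 31 subunits of the core and cap had log2 fold changes from -0.19 (PSMD6) to 0.38 (PSMB4) after IFN-γ. None was called by limma, and none had an unadjusted p under 0.05, which 4 of 43 members and 22% of all genes had. The 95% intervals of 30 of the 31 excluded a change of 1.5-fold, as did those of 70.9% of all genes. The exception was PSMB4, a structural beta subunit, with an upper bound of 0.78. It was at 495, 569 and 427 TPM without treatment and 650.2, 635 and 645 TPM after IFN-γ, so the untreated libraries were far more spread. The median over the members was 0.05, beside 0.03 over all genes. For 15 of 43 members (34.9%) the groups did not overlap, beside 34.2% of all genes.

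**Figure D2:**
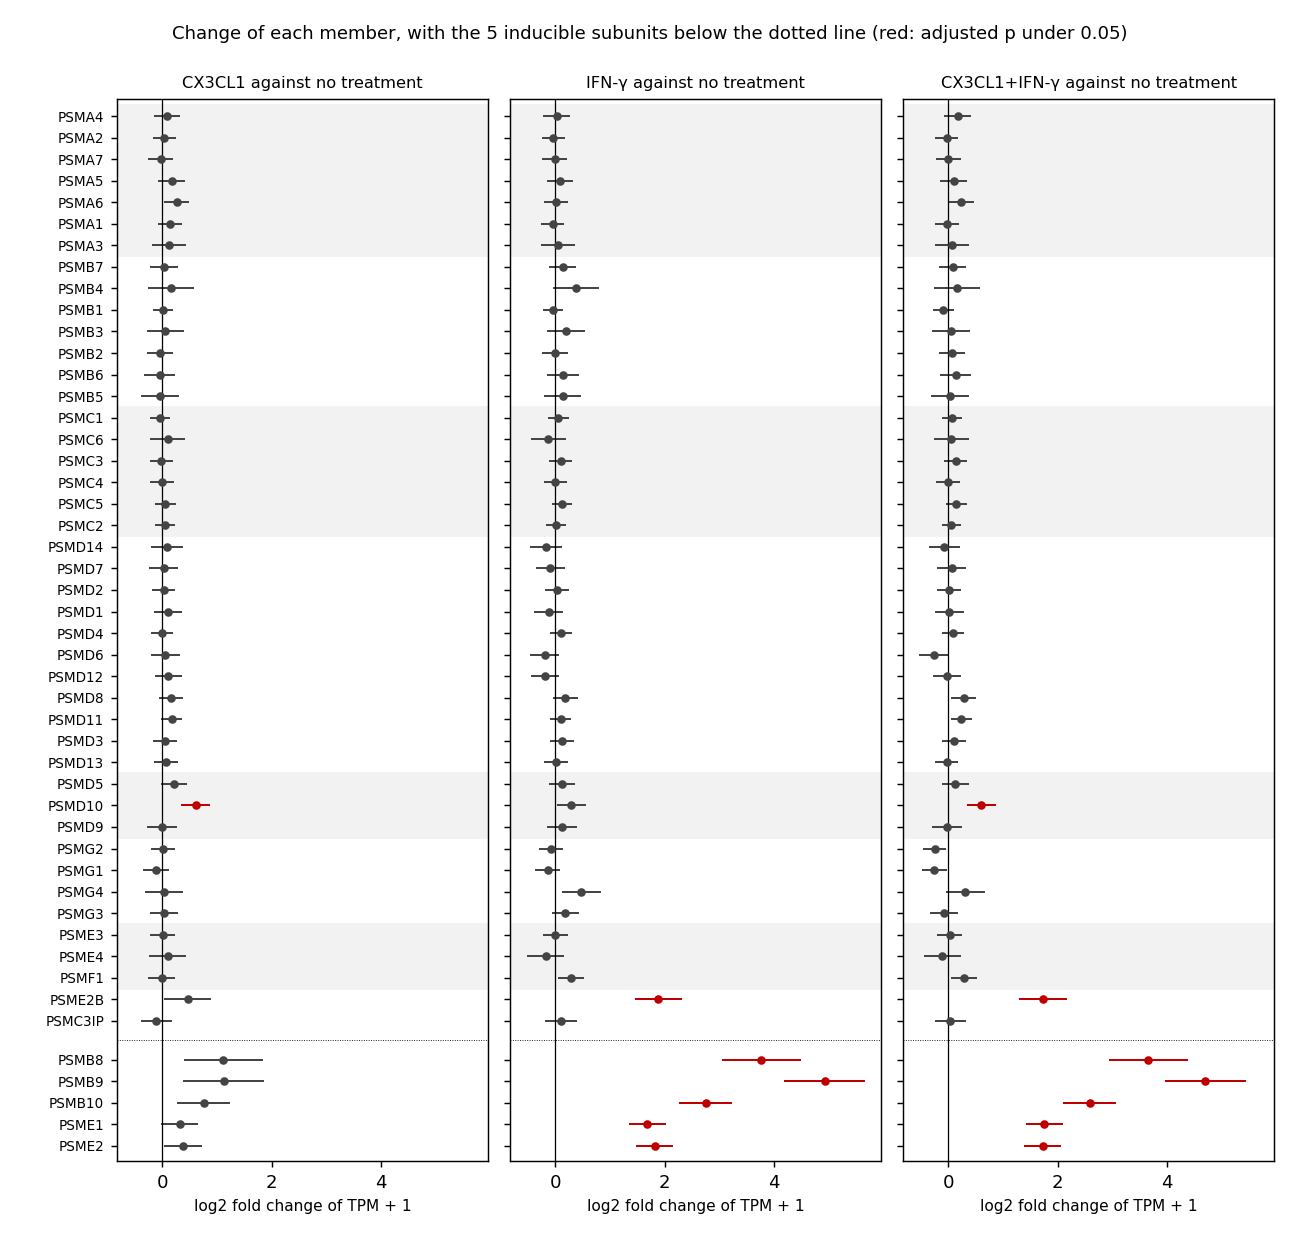
Log2 fold change of TPM + 1 (points) with 95% intervals (lines) for the 43 members in order of role, and for the 5 inducible subunits below the dotted line, in the 3 comparisons with no treatment. Red marks an adjusted p under 0.05, which PSMD10 and PSME2B reach among the members and which all 5 inducible subunits reach in both comparisons with IFN-γ.

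The 3 catalytic pairs set the constitutive subunits beside their inducible counterparts within each library. PSMB5, the chymotrypsin-like subunit, was at 61.2, 75.2 and 70.3 TPM without treatment and 72.3, 79.2 and 74.9 TPM after IFN-γ. PSMB6, the caspase-like subunit, was at 224, 202 and 257 TPM and then at 253, 247.5 and 248 TPM. PSMB7, the trypsin-like subunit, was at 562, 581 and 527 TPM and then at 598, 616 and 624 TPM. Only PSMB7 had groups that did not overlap, and the log2 fold changes of 0.13, 0.14 and 0.14 did not pass (limma, adjusted p from 0.491 to 0.660). With centring by GC content those of PSMB5 and PSMB6 were below 0. With CX3CL1+IFN-γ the 3 were at 64.3, 72.0 and 74.7 TPM, at 284, 227 and 239 TPM and at 511, 637 and 623 TPM, and each overlapped with no treatment. After CX3CL1 they were at 73.6, 50.3 and 80.5 TPM, at 244, 186 and 232 TPM and at 594, 511 and 607 TPM, lowest in replicate 2 in every case.

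The inducible partners moved by far more, and all 5 inducible subunits were called higher after IFN-γ with a median log2 fold change of 2.75. PSMB8 averaged 17.03 ± 9.02 TPM without treatment and 226 ± 32.1 TPM after IFN-γ, PSMB9 7.09 ± 2.26 and 244 ± 69.6 TPM, and PSMB10 41.4 ± 2.08 and 287 ± 57.0 TPM. The ratio of PSMB8 to PSMB5 was thus 0.436, 0.117 and 0.221 in the untreated libraries and 3.13, 2.44 and 3.44 after IFN-γ. For PSMB9 to PSMB6 the mean ratio went from 0.0308 ± 0.00810 to 0.976 ± 0.283. For PSMB10 to PSMB7 it went from 0.0746 ± 0.00700 to 0.469 ± 0.0873. After IFN-γ the mean ratio was thus above 1, near 1 and below 1 in the 3 pairs. The groups did not overlap in any pair, and exact permutation, two-sided, gave p = 0.1 for each, the smallest that 3 against 3 libraries allow (adjusted p = 0.125 over 15 tests of ratios).

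After CX3CL1 alone the 3 mean ratios were 0.525 ± 0.0801, 0.0767 ± 0.0288 and 0.126 ± 0.0273. The groups did not overlap, but for PSMB8 to PSMB5 the lowest CX3CL1 library (0.437) was just above the highest untreated one (0.436), and no inducible subunit was called after CX3CL1 (limma without the block, where 4 of 5 had an unadjusted p under 0.05). With CX3CL1+IFN-γ the ratios were 2.97 ± 0.378, 0.856 ± 0.319 and 0.438 ± 0.0879, which overlapped with those after IFN-γ in each pair (exact permutation p from 0.7 to 0.9).

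**Figure D3:**
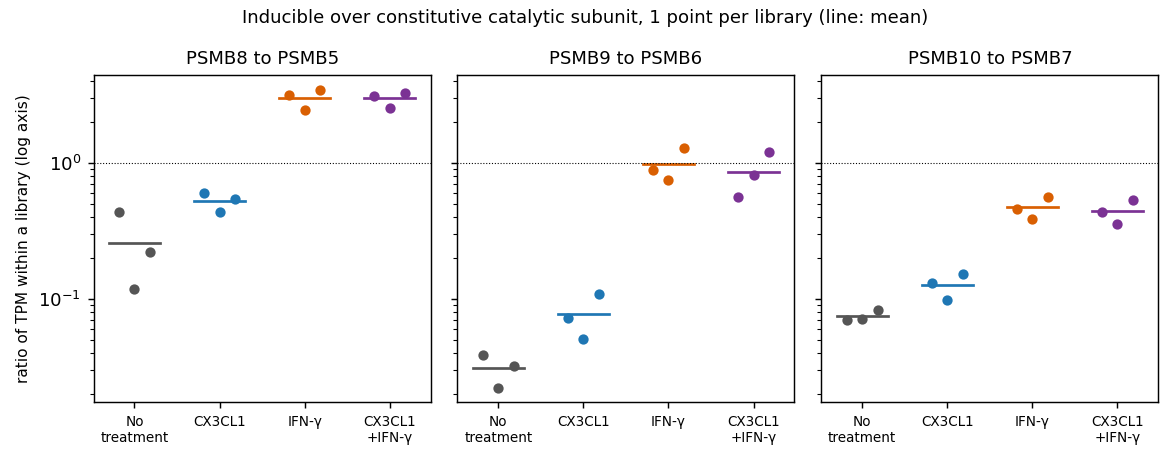
Ratio of the TPM of an inducible to that of the constitutive catalytic subunit within each library, on a log axis, with 1 point per library and a line at the group mean (n = 3). The dotted line marks equal TPM, which PSMB8 exceeded in every library with IFN-γ and PSMB10 in none.

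With CX3CL1+IFN-γ, both PSMD10 and PSME2B were above no treatment. PSMD10 was at 90.8, 74.5 and 75.4 TPM, above every untreated library, with a log2 fold change of 0.60 (SE 0.112, limma, adjusted p = 0.00282). PSME2B was at 146, 143 and 196 TPM, with a log2 fold change of 1.73 (SE 0.191, adjusted p = 4.50e-05). These were 2 of 43 members, beside 11.9% of all genes tested. This comparison shares its untreated libraries with the 2 above.

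With both agents, none of the 31 subunits of the core and cap was called by limma with the filter and without the block. Of them 4, and 9 of 43 members, had an unadjusted p under 0.05, beside 24.6% of all genes. All 31 intervals excluded a 1.5-fold change, as did 69.7% of those of all genes. The lowest adjusted p among them was 0.0782, for PSMD8, a cap subunit at 207, 202 and 229.8 TPM without treatment and 289, 240.1 and 248 TPM with both agents (log2 fold change 0.28). PSMD11 had a log2 fold change of 0.23 and PSMA6 of 0.24. PSMD6, another cap subunit, was at 237, 261 and 232 TPM and then at 165, 228.5 and 216 TPM, with a log2 fold change of -0.27 that was -0.13 without CX3CL1+IFN-γ replicate 1. PSMG1 and PSMG2, which pair to assemble the alpha ring, had log2 fold changes of -0.26 and -0.25 (adjusted p = 0.122 and 0.1), and without the same library that of PSMG1 was -0.16. Besides these, PSMF1 had a log2 fold change of 0.29 (adjusted p = 0.1). The groups did not overlap for 16 of 43 members (37.2%), beside 31.2% of all genes.

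**Figure D4:**
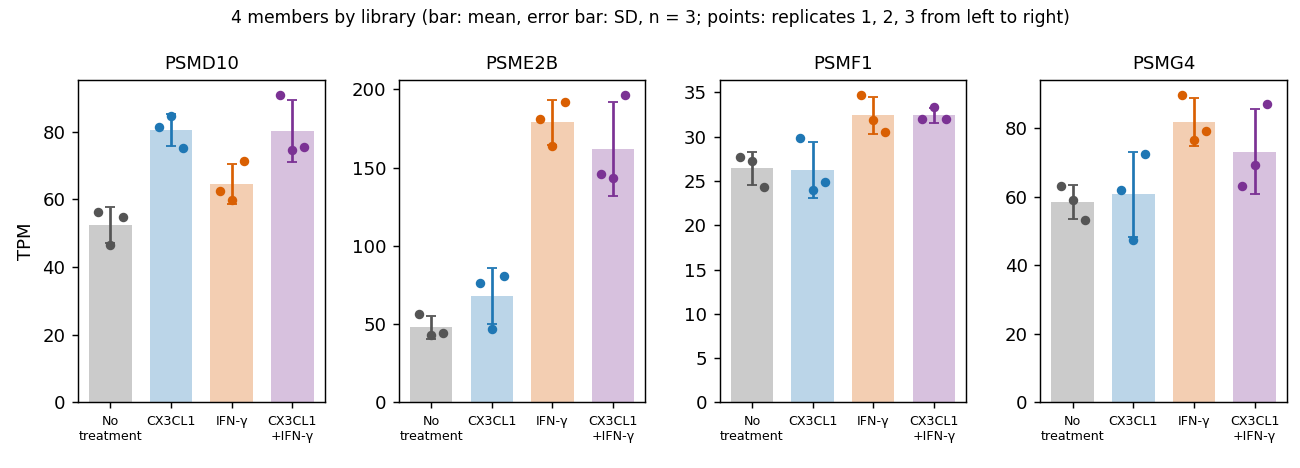
TPM of 4 members by group, with bars for the mean, error bars for the SD (n = 3) and points for the replicates. PSMD10 is above all untreated libraries in every treated library, PSME2B and PSMF1 are highest in both groups with IFN-γ, and PSMG4 is highest after IFN-γ.

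Between the treated groups, adding CX3CL1 to IFN-γ called no member by limma, beside 0.362% of all genes tested, and 3 members had an unadjusted p under 0.05 (4.35% of all genes). These were PSMD10 (log2 fold change 0.31, adjusted p = 0.791), PSMA6 (0.22) and PSMG3, a core chaperone (-0.27), the last 2 at the same adjusted p of 0.9755. PSMG3 was at 65.2, 64.6 and 56.3 TPM after IFN-γ and 52.4, 53.2 and 48.3 TPM with both. The groups did not overlap for 10 members (23.3%), beside 16.3% of all genes, and 30 of the 31 intervals of the core and cap excluded a 1.5-fold change (83.5% of all genes). Adding IFN-γ to CX3CL1 called PSME2B, with a log2 fold change of 1.26 (SE 0.191, limma, adjusted p = 0.00222), beside 4.7% of all genes. With the replicate block, which these groups also support, PSMF1 passed too (log2 fold change 0.30, adjusted p = 0.0449), which made 2 of 43 members beside 11.5% of all genes, but not with centring by GC content as well (adjusted p = 0.0975). At an unadjusted p under 0.05, 4 of 43 members passed, beside 17.7% of all genes. The groups did not overlap for 9 members (20.9%), beside 19.5%, and all 31 intervals of the core and cap excluded a 1.5-fold change (75% of all genes). PSMD6 (-0.33) and PSMG2 (-0.27) had unadjusted p-values under 0.05 and adjusted p-values of 0.139 and 0.128, and without CX3CL1+IFN-γ replicate 1 the log2 fold change of PSMD6 was -0.18. PSMG2 was at 99.01, 101 and 89.5 TPM after CX3CL1 and 72.7, 84.7 and 82.3 TPM with both agents, without overlap.

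The effect of CX3CL1 with IFN-γ did not differ detectably from its effect without. The interaction called 0 of 43 members and 0 of all genes by limma (0%), and 273 genes (2.3%), PSME2B alone among the members, had an unadjusted p under 0.05. The intervals of 29 of the 31 subunits of the core and cap excluded a 1.5-fold difference between the effects (62.2% of all genes). For PSME2B the interaction was -0.62 on the log2 scale (SE 0.270, adjusted p = 1.00) and for PSMD10 it was -0.30 (SE 0.158, adjusted p = 1.00).

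Summed over subunits, the group means of the core and of the cap differed by a few percent. The 14 constitutive core subunits summed to 5207 ± 154 TPM without treatment, 5509 ± 215 after CX3CL1, 5501 ± 129 after IFN-γ and 5487 ± 342 with both. The 17 cap subunits that match the naming rule summed to 4967 ± 114, 5179 ± 257, 4918 ± 94.7 and 5130 ± 63.8 TPM. The sum over all 45 members was 5.35% above no treatment after CX3CL1 and 3.86% above it after IFN-γ, without overlap between the groups, and 5.33% above it with both, with overlap. The exact permutation test gave p = 0.1, 0.1 and 0.2, and adjusted p-values over the 15 tests of sums were 0.375 or more. Since each library has the same total, these sums are relative to all other transcripts.

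CX3CL1 replicate 2 widened the spread in its group. The SD of its deviations from the group mean over the 43 members was 0.211 on the log2 scale, beside 0.0520 to 0.138 in the 11 other libraries. In it PSMC6 was at 509 TPM against 331 and 340.2 TPM in the other CX3CL1 libraries, and PSMD14 at 711 against 511 and 555 TPM. PSMB4 was at 409 TPM against 631 and 642 TPM, and PSMB5 at 50.3 against 73.6 and 80.5 TPM. Across the 43 members, which share these libraries, its deviations had a Pearson correlation of -0.70 with the GC content of the transcript, beside 0.65 and 0.61 in CX3CL1 replicates 1 and 3, whose deviations offset it by construction. The pattern was not particular to the members. Over 11743 genes with a known GC content the correlation was -0.64 in replicate 2, beside 0.44 and 0.48 in replicates 1 and 3. Over all genes tested, the SD of replicate 2 was 0.252, beside 0.117 to 0.206 in the 11 other libraries. PSMD10 kept its call without this library, and PSME2B gained one (log2 fold change 0.71, limma, adjusted p = 0.0361, against 0.47 and 0.486 with the library).

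**Figure D5:**
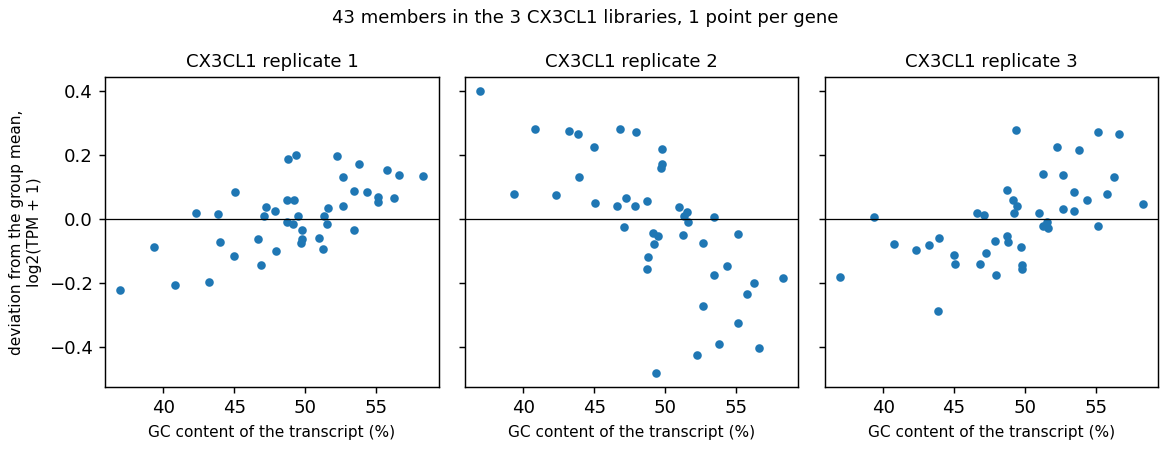
Deviation of each of the 43 members from the CX3CL1 group mean on the log2(TPM + 1) scale against the GC content of its transcript in percent, in 1 panel per CX3CL1 library. Replicate 2 falls with GC content, with a correlation of -0.70, and replicates 1 and 3 rise with it.

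Genes around the proteasome were read from lists of their own. Of 10 components and cofactors outside the naming rule, among them POMP, which matures the core, ADRM1, a ubiquitin receptor of the cap, and USP14, a deubiquitinase on the cap, none was called by limma in any of the 6 comparisons, and at most 1 had an unadjusted p under 0.05 in each. The same counts held for 8 genes that deliver substrates, such as VCP and RAD23B, of which 1 was called after IFN-γ with the block. Of 4 genes that control proteasome transcription, 1 was called after IFN-γ and with both agents. That was NFE2L1, the factor that restores proteasome genes when degradation is blocked. It averaged 101 ± 9.20 TPM without treatment, 134 TPM after CX3CL1, 151 ± 23.9 TPM after IFN-γ and 180.5 ± 29.5 TPM with both. Its log2 fold change was 0.83 with both agents (limma, adjusted p = 0.00130) and 0.57 after IFN-γ (adjusted p = 0.0243). The call after IFN-γ alone was lost without untreated replicate 2 or 3 or IFN-γ replicate 1 or 3, at adjusted p-values from 0.0766 to 0.112. In CX3CL1+IFN-γ against CX3CL1 the log2 fold change of NFE2L1 was 0.41 (limma, adjusted p = 0.124), which passed with the replicate block (adjusted p = 0.00647). UBB, a polyubiquitin gene, averaged 27.3 TPM without treatment, 28.9 after CX3CL1, 36.9 after IFN-γ and 37.7 with both, and was called with both agents. Its call depended on single libraries, since it was lost without any library of the comparison except CX3CL1+IFN-γ replicate 2 (limma, adjusted p from 0.0800 to 0.122).

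The promoters of the members were searched for the patterns of factors tied to either agent or to proteasome genes. RefSeq gave 250 bases upstream of the start for 37 of the members, which were read on both strands and set beside 27025 genes. The interferon patterns GAS (TTCNNNGAA) and ISRE (GAAANNGAAA) occurred in 1 (PSMG1) and 3 members (PSMB3, PSMD4 and PSMD9), or 2.703% and 8.11%, beside 8.13% and 3.46% of all genes. Among the inducible subunits, GAS was found in PSMB8 only and ISRE in none. The NF-kB pattern occurred in 6 members (16.2%) beside 8.23% of all genes, and PSMD10 was not among them. TGACNNNGC occurred in 5 (13.5% beside 11.5%), CCAAT in 14 (37.8% beside 37.5%) and the ETS pattern CCGGAAG in 13 (35.1% beside 7.83%). The 27025 genes were not limited to those expressed in these cells, while nearly all members were abundant. No pattern contains another, and a match describes letters only, not binding.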

How the data were processed

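RNA-seq of 12 CT26 libraries was analysed from TPM deposited by the authors, who made strand-specific mRNA libraries, aligned reads to mm10 and counted them with STAR 2.7.3a and tested counts with DESeq2 1.22.1. How counts became TPM and which annotation was used are not given in the sources used here, and counts were not analysed here.

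Groups followed the labels. The CX3CL1 dose and the time followed the methods, and the IFN-γ dose followed the study's figure legend. Of all symbols, 11878 averaged 0.2 TPM or more and were tested in R 4.3.3 with limma 3.58.1 on log2(TPM + 1), which understates changes of low genes, with all 12 libraries, an intensity trend and no block. Each of 6 comparisons had its own Benjamini-Hochberg adjustment, and calls were made at 0.05. Simulated libraries were used to check the scripts. Sums and ratios were compared by exact two-sided permutation tests. Transcripts and positions came from GENCODE on GRCm38, and upstream sequences from RefSeq on GRCm38.p6. Sequences were read with pandas 2.3.3 and aligned with Biopython 1.88.

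The members and lists were chosen with earlier results of these data known. Named were the members called, the catalytic subunits, those listed near 0 and the highest and lowest of each role, some as ranges. Other members were named after their values were seen. Part of the list of ubiquitin genes is not reported here. Alternatives were a pseudocount of 0.1, other filters, scalings and trend, the replicate block and leaving out each library. Centring in 10 bins of GC content was added after seeing the data. Same-numbered libraries deviated together for no treatment and IFN-γ (correlations across genes 0.429, 0.460 and 0.220), for IFN-γ and CX3CL1+IFN-γ (0.630, 0.635 and 0.649) and for CX3CL1 and CX3CL1+IFN-γ (0.351, 0.353 and 0.428). The pairing rests on these values, since the sources do not say what a number shares, and p-values measure the spread between these libraries.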

Additional observations from a re-analysis of the deposited data

How the results depend on the processing

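PSME2B in both comparisons of IFN-γ with no treatment and in CX3CL1+IFN-γ against CX3CL1, and PSMD10 with both agents, were called in all 16 alternatives, and PSMD10 after CX3CL1 in 15. Leaving out libraries moved the number of members called after CX3CL1 between 0 (without untreated replicate 2) and 2 (without CX3CL1 replicate 2). With the replicate block 3 members were called after IFN-γ (16.2% of all genes), 8 with both agents (20.7%) and 2 in CX3CL1+IFN-γ against CX3CL1 (11.5%), and the block changed no other call among the members. Same-numbered libraries of no treatment did not all deviate together with those of CX3CL1 or of both agents, so calls of the block in these comparisons are given here only. The 8 were PSMA6, PSMD8 and PSMD11 of the core and cap, PSMD10, PSMG1, PSMG2, PSMF1 and PSME2B. After CX3CL1 the block also called NFE2L1 (limma, adjusted p = 0.0122) and 3 inducible subunits, PSMB8 (0.0189), PSMB9 (0.00609) and PSMB10 (0.0115). GC centring with the replicate block called 4 members after IFN-γ (PSMD10, PSMD12, PSME2B and PSMG1, beside 26.5% of all genes), 6 with both agents (PSMD6, PSMD10, PSME2B, PSME4, PSMG1 and PSMG2, beside 34%) and 7 in CX3CL1+IFN-γ against CX3CL1 (PSMD6, PSMD13, PSME2B, PSME4, PSMG1, PSMG2 and PSMG3, beside 19.6%). A fit restricted to the libraries compared called PSME2B and PSMG4, 2 members, after IFN-γ (10.9% of all genes). Without the filter or the block, PSMD11 of the cap was called with both agents, among 3 of 44 members beside 8.37% of all genes. Quantile normalization and GC centring, each without the block, called PSMG2 with both agents. Each called 3 of 43 members there, beside 14.2% and 19.3% of all genes.

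The medians over the members were near 0 and moved with the scaling. They were 0.0161 after IFN-γ, 0.0203 with both and -0.0616 in CX3CL1+IFN-γ against CX3CL1 with median-ratio scaling. With quantile normalization they were 0.0149 after CX3CL1, 0.0249 after IFN-γ, -0.00274 with both, -0.0204 in CX3CL1+IFN-γ against IFN-γ and -0.0327 in CX3CL1+IFN-γ against CX3CL1. With GC centring, with or without the block, they were -0.0416 after IFN-γ, -0.0504 with both and -0.067 in CX3CL1+IFN-γ against CX3CL1, and the log2 fold changes of PSMB5 and PSMB6 after IFN-γ were -0.0602 and -0.0176. The cause was not tested.

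Without single libraries, medians ran from 0.0224 to 0.0663 with both agents, from -0.0123 to 0.0291 in CX3CL1+IFN-γ against CX3CL1 and from -0.0727 to -0.00867 for the interaction. The summed cap moved from -2.09% to 0.300% after IFN-γ and from -2.47% to 1.98% in CX3CL1+IFN-γ against CX3CL1, where the core moved from -2.47% to 3.17% and all members from -1.07% to 2.04%. In CX3CL1+IFN-γ against IFN-γ the core moved from -2.33% to 3.31%, and the log2 ratios differed by -0.152 to 0.0969 for PSMB8 to PSMB5, by -0.49 to 0.0528 for PSMB9 to PSMB6 and by -0.247 to 0.0437 for PSMB10 to PSMB7. Depth is unknown, so small changes are limited by the spread of 3 replicates.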
